A study of Mus musculus with 6 samples.

Results

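The genes described here are those of pleiotrophin (*Ptn*), midkine (*Mdk*) and the cell surface proteins that bind them, the receptor tyrosine phosphatase *Ptprz1*, the receptor tyrosine kinase *Alk*, nucleolin (*Ncl*) and the syndecans *Sdc1*, *Sdc2*, *Sdc3* and *Sdc4*. Every probe whose symbol in the array table is 1 of these 9 genes was taken, which gave 18 of the 45281 probes. The samples were bone tubes, the shafts of tibia and femur of C57BL6 mice aged 3 months, from which marrow was flushed and surface cells were digested with collagenase and trypsin. All tubes were kept overnight in medium with 10% serum and then for 24 hours either untreated (control) or with the parathyroid hormone fragment PTH 1-34 at 250 nM. RNA of about 10 bones, from 4 to 5 mice, was pooled in a preparation, and each group was measured on 3 Illumina mouse bead arrays. Nothing in the labels says whether the arrays of a group came from separate cultures, so p-values measure only the spread between these samples.

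Pleiotrophin and midkine are the only members of a family of small secreted growth factors that bind heparin. Both are held in the extracellular matrix by the sulfated sugar chains of proteoglycans, and both bind PTPRZ1, a transmembrane phosphatase that itself carries chondroitin sulfate. Binding of pleiotrophin is known to inactivate the phosphatase, so that its substrates stay phosphorylated on tyrosine, and ALK has been placed downstream of it. Syndecans are transmembrane proteoglycans with heparan sulfate chains that act as co-receptors, and nucleolin is an abundant nucleolar protein that also reaches the cell surface. In bone, pleiotrophin is deposited in the matrix by cells of the osteoblast lineage, and PTPRZ1 has been described in osteoblasts.

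In untreated tubes 8 of the 9 genes had a probe above background on every control array, and *Alk* had none. With PTH, *Ptn* rose 1.98-fold and *Ptprz1* fell 2.3-fold. Of 2 tested *Sdc1* probes the dimmer rose 2.04-fold and the brighter was 1.42-fold higher without passing the test. *Mdk*, *Sdc2*, *Sdc3*, *Sdc4* and *Ncl* did not pass on any probe. The results on *Ptn*, *Ptprz1* and the dimmer *Sdc1* probe each failed the test when certain single arrays were left out. They also failed it with the replicate number as a block. *Ptprz1* was close to background with PTH, and its fall was smaller without background correction.

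Signals are given as deposited, as the linear intensity of a probe, and as the log2 of the signal after background correction and quantile normalization, called the normalized log2 signal below. A probe was taken as above background on an array when its detection p, which compares it with the negative controls of that array, was under 0.05, and was tested when 3 or more of the 6 arrays met that limit. PTH was compared with control in limma, p-values were adjusted by the method of Benjamini and Hochberg over all 16214 probes tested, and a probe was called at an adjusted p under 0.05. Median signal was between 111.3 and 128.9 on the control arrays and between 112.3 and 124.5 on the PTH arrays, and between 15504 and 17374 probes were above background on each array. Levels of different probes are not compared with each other, since each probe has its own binding strength.

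Of the 18 probes 11 were tested, and these covered 8 of the 9 genes. The other 7 were 2 of *Alk*, 2 of *Mdk* and 1 each of *Ptn*, *Ptprz1* and *Sdc1*, which were above background on no array, or, for 1 *Alk* probe and the *Sdc1* probe, on 1 control array. Among the 11 tested probes, 2 were called higher with PTH and 1 lower, against 0.617% called higher, 0.993% called lower and 1.61% called either way of all probes tested. The 3 PTH arrays lay above the 3 control arrays on 4 of the 11 probes and below them on 3, which was found on 10.3% and 10.5% of all probes tested, or 20.8% together. The median change over all probes tested was 0.00 on the log2 scale.

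**Figure D1:**
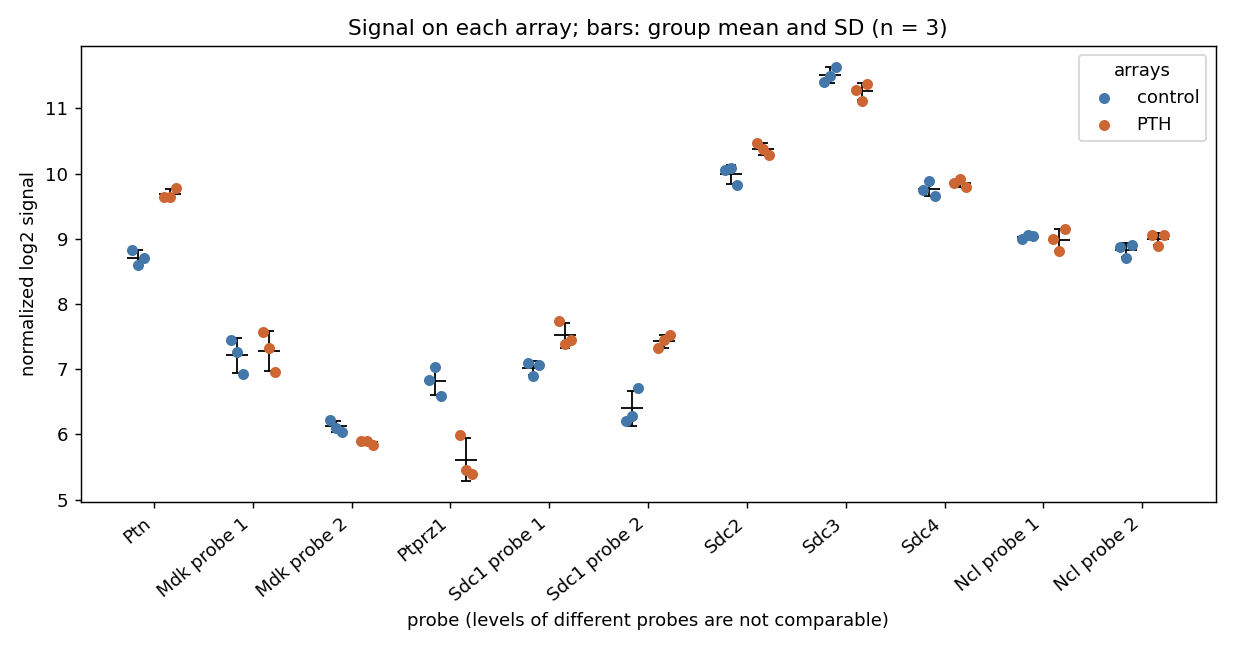
Normalized log2 signal of the 11 tested probes on each array, with control arrays in blue, PTH arrays in orange and black bars for the mean and SD of each group (n = 3 each); where a gene has more than 1 tested probe, probe 1 is the brighter. The PTH arrays of *Ptn* lie between 9.64 and 9.78, above the control arrays at 8.59 to 8.83, and those of *Ptprz1* lie between 5.39 and 5.99, below the control arrays at 6.59 to 7.03.

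*Ptn*, on mouse chromosome 6 (GRCm38.p6, 36714924 to 36810179), was measured on probe ILMN_2638114. Its signal read 455.9, 481.2 and 505.9 in control and 740.3, 917.8 and 1343 with PTH. After normalization the log2 signal was 8.83, 8.59 and 8.70 in control and 9.64, 9.64 and 9.78 with PTH, so that the lowest PTH array stood well clear of the highest control array and the PTH arrays varied little among themselves. The mean rose from 8.71 ± 0.12 to 9.69 ± 0.08 (SD, n = 3 each), a log2 fold change of 0.98 (SE 0.13, 95% confidence interval 0.69 to 1.27; limma adjusted p = 0.0123), which ranked 60 among the 16214 probes tested from the largest rise down. The study named *Ptn* among genes that rose with PTH both in these same arrays and in RNA sequencing of an osteocyte-like cell line. Its rise here is therefore not independent of the study's array result, and the sequencing data were not used. Leaving out each array in turn gave log2 fold changes from 0.92 to 1.05, and the call was lost without control replicate 2 (limma adjusted p = 0.0573) and without PTH replicate 2 (limma adjusted p = 0.0529). A second *Ptn* probe, ILMN_1248991, was above background on 0 of 6 arrays and gives no second reading of the gene. In bulk tissue such as this, a change in the share of cells of a type and a change in the RNA per cell cannot be told apart.

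The midkine gene lies on chromosome 2 (91929805 to 91932297) and had 4 probes, of which 2 were tested, while ILMN_3080012 and ILMN_3079236 were above background on 0 of 6 arrays. On the brighter, ILMN_3158499, the normalized log2 signal was 7.45, 7.27 and 6.92 in control and 7.57, 7.32 and 6.96 with PTH, and the groups overlapped almost fully. The difference was 0.07 on the log2 scale (SE 0.20, 95% confidence interval −0.40 to 0.54; limma adjusted p = 0.915), an interval that leaves room for changes of some size either way. On the dimmer probe, ILMN_1254450, it was 6.22, 6.10 and 6.04 in control and 5.90, 5.90 and 5.83 with PTH, and all PTH arrays lay below the control arrays by a small margin. That difference was −0.25 (SE 0.12, 95% confidence interval −0.52 to 0.03; limma adjusted p = 0.396). Within each array the *Ptn* signal was set against that of the brighter *Mdk* probe. The log2 difference went from 1.49 ± 0.25 in control to 2.40 ± 0.39 with PTH (SD, n = 3 each). That is a 1.88-fold change in favour of *Ptn* (two-sided exact permutation test, p = 0.1). That p is the smallest that 3 arrays against 3 can give. The gap between the groups on the *Ptn* probe was wider than the whole range of this *Mdk* probe. The outcome of the test was therefore fixed by the rise of *Ptn*, and no conclusion on the balance is drawn from it. This difference was 1 of 6 within-array differences computed, all chosen with the probes' values known, of which 3 were tested. Its Benjamini-Hochberg adjusted p over those was 0.15.

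The stretches just upstream of *Ptn* and *Sdc1*, the genes with a probe called higher, were read from RefSeq promoters of GRCm38.p6 to show what each holds. Each is the 250 bases before the transcription start, 5′ to 3′ on the strand of the gene, with capitals marking the GC box GGGCGG and the stretch TATAA read on either strand.
Ptn (chr6:36810180-36810429, minus strand): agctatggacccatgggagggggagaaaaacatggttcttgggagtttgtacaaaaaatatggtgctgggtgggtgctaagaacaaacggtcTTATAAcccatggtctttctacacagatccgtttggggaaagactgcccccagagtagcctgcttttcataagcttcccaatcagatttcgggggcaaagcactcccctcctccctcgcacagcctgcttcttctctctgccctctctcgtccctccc
Sdc1 (chr12:8771146-8771395, plus strand): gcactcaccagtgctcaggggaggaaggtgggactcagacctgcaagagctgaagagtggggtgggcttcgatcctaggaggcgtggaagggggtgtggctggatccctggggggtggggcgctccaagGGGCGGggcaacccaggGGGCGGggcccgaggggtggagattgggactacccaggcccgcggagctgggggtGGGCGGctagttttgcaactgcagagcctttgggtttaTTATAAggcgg
The *Ptn* sequence holds no GC box and 1 TATAA stretch, which reads on both strands and lies 158 bases before the start, and its GC content is 52%. The *Sdc1* sequence holds 3 GC boxes and a TATAA stretch 11 bases before the start, with a GC content of 66%. The median GC content was 52.4% over 32851 promoter windows of this length, 32.7% of which hold a GC box and 22.8% a TATAA stretch. Neither sequence holds the cAMP response element TGACGTCA, its shorter core TGACG, the AP-1 motif TGANTCA or the RUNX motif TGTGGT, on either strand. These are found in 1.55%, 17.8%, 6.75% and 14% of all windows, and each TGACGTCA also counts as a TGACG. The absence of these letters from 250 bases says nothing about the factors or about sites elsewhere. Promoters of 7 of the 9 genes were matched, and those of *Mdk* and *Sdc2* were not. The TGACG core was present in the windows of *Alk*, *Ncl* and *Sdc3*. No probe of *Ncl* or *Sdc3* was called, and *Alk* had no tested probe.

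*Ptprz1* also lies on chromosome 6 (22875315 to 23052916). On probe ILMN_1259579 its signal read 187.9, 233.5 and 187.4 in control and 142.9, 134.5 and 152.4 with PTH, so that it was above background on all 6 arrays but close to it on those with PTH. The normalized log2 signal was 6.83, 7.03 and 6.59 in control and 5.99, 5.46 and 5.39 with PTH, with no overlap between the groups. The mean fell from 6.82 ± 0.22 to 5.61 ± 0.33 (SD, n = 3 each), a log2 fold change of −1.20 (SE 0.20, 95% confidence interval −1.66 to −0.75; limma adjusted p = 0.0297), which ranked 55 among the probes tested from the largest fall up. The size of this change rests on the background correction, since without it the log2 fold change was −0.53 (limma adjusted p = 0.00262). It also rests on all the arrays, for the call held only without PTH replicate 1 (limma adjusted p = 0.0283) and was lost when any of the other 5 arrays was left out, with adjusted p up to 0.112 and log2 fold changes from −1.41 to −1.06. With all 45281 probes tested the limma adjusted p was 0.0601. The second probe of the gene, ILMN_1257625, was above background on 0 of 6 arrays. Within each array the *Ptn* signal minus the *Ptprz1* signal went from 1.89 ± 0.29 to 4.08 ± 0.38 on the log2 scale (SD, n = 3 each), so that the transcript of the ligand gained 4.55-fold on that of its phosphatase receptor. Without background correction the gain was 2.58-fold. No test is given for this difference, since the groups were already apart in opposite directions on both probes.

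*Alk*, on chromosome 17 (71868988 to 72604702), was not measurable. Its probe ILMN_2769925 was above background on 0 of 6 arrays and ILMN_2573068 on 1 control array, and the signals of the latter ran from 105.7 to 122.4 over the 6 arrays. At these levels no change with PTH could be detected.

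The syndecans divide into the widely expressed *Sdc4*, which sits in focal adhesions, *Sdc1*, known from epithelia and plasma cells, *Sdc2*, known from fibroblasts and osteoblasts, and *Sdc3*, known from neurons and also described in bone. *Sdc1*, on chromosome 12 (8771396 to 8793716), had 3 probes. On the brightest, ILMN_2756943, the signal was 205.3, 222.3 and 226.2 in control and 261.1, 258.7 and 343.2 with PTH, and the normalized log2 signal was 7.09, 6.90 and 7.06 against 7.74, 7.38 and 7.44. The groups did not overlap, but the log2 fold change of 0.51 (SE 0.14, 95% confidence interval 0.18 to 0.84) did not pass the test (limma adjusted p = 0.154). On the second probe, ILMN_1228718, the signal was 157.6, 181.3 and 196.8 in control and 218.3, 266 and 355.5 with PTH, and the normalized log2 signal was 6.21, 6.28 and 6.71 against 7.32, 7.44 and 7.52. Here the groups were further apart, with means of 6.40 ± 0.27 and 7.43 ± 0.10 (SD, n = 3 each) and a log2 fold change of 1.03 (SE 0.16, 95% confidence interval 0.65 to 1.41; limma adjusted p = 0.0265), rank 48 from the largest rise down. The difference between the probes within an array went from −0.62 ± 0.27 to −0.10 ± 0.28 on the log2 scale, which did not pass (two-sided exact permutation test, p = 0.2, also after adjustment over the 3 tested differences, n = 3 arrays each). The third probe, ILMN_2927799, was above background on 1 control array.

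By its brightest probe, *Sdc1* was therefore not called. The call on its second probe held without control replicate 3 (limma adjusted p = 0.0245) and was lost when any of the other 5 arrays was left out (up to 0.108), while the log2 fold change stayed between 0.94 and 1.19. Without background correction it was 0.57 and still called, and the brightest probe was 0.32 and not called.

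*Sdc2*, on chromosome 15 (32920723 to 33034721), had a normalized log2 signal of 10.05, 10.09 and 9.82 in control and 10.47, 10.38 and 10.28 with PTH on probe ILMN_2619983. All PTH arrays lay above the control arrays, with a log2 fold change of 0.39 (SE 0.13, 95% confidence interval 0.09 to 0.70; limma adjusted p = 0.222), and with quantile normalization alone the probe was called at 0.36 (limma adjusted p = 0.0375). *Sdc3*, on chromosome 4 (130792537 to 130826318), went the other way on probe ILMN_2715042, with 11.40, 11.50 and 11.64 in control and 11.28, 11.12 and 11.38 with PTH. Its groups were close but did not overlap, and the log2 fold change was −0.25 (SE 0.13, 95% confidence interval −0.56 to 0.06; limma adjusted p = 0.44). *Sdc4*, on chromosome 2 (164424247 to 164443188), read 9.75, 9.89 and 9.66 in control and 9.86, 9.92 and 9.80 with PTH on probe ILMN_2728729. The groups overlapped and the log2 fold change was 0.09 (SE 0.12, 95% confidence interval −0.19 to 0.38; limma adjusted p = 0.794).

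Set against *Sdc3* on the same array, the brightest *Sdc1* probe gained 0.76, *Sdc2* gained 0.64 and *Sdc4* gained 0.35 on the log2 scale, or 1.7-fold, 1.56-fold and 1.27-fold. The first 2 get no test, since the groups were already apart in opposite directions on those probes. For *Sdc4* against *Sdc3* the two-sided exact permutation test gave p = 0.1, the smallest that can be reached, and 0.15 adjusted over the 3 tested differences. The 3 share the *Sdc3* values and are not separate pieces of evidence.

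Nucleolin, on chromosome 1 (86344719 to 86359455), had 2 tested probes. On the brighter, ILMN_2723850, the normalized log2 signal was 8.99, 9.05 and 9.04 in control and from 8.81 to 9.15 with PTH, a difference of −0.04 (SE 0.13, 95% confidence interval −0.34 to 0.27; limma adjusted p = 0.929). On ILMN_2693976 it was 8.87, 8.70 and 8.91 against 9.05, 8.89 and 9.06, a difference of 0.18 (SE 0.13, 95% confidence interval −0.12 to 0.47; limma adjusted p = 0.595). The groups overlapped on both probes, and both intervals end below the log2 fold change of 0.98 estimated for *Ptn*.

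**Figure D2:**
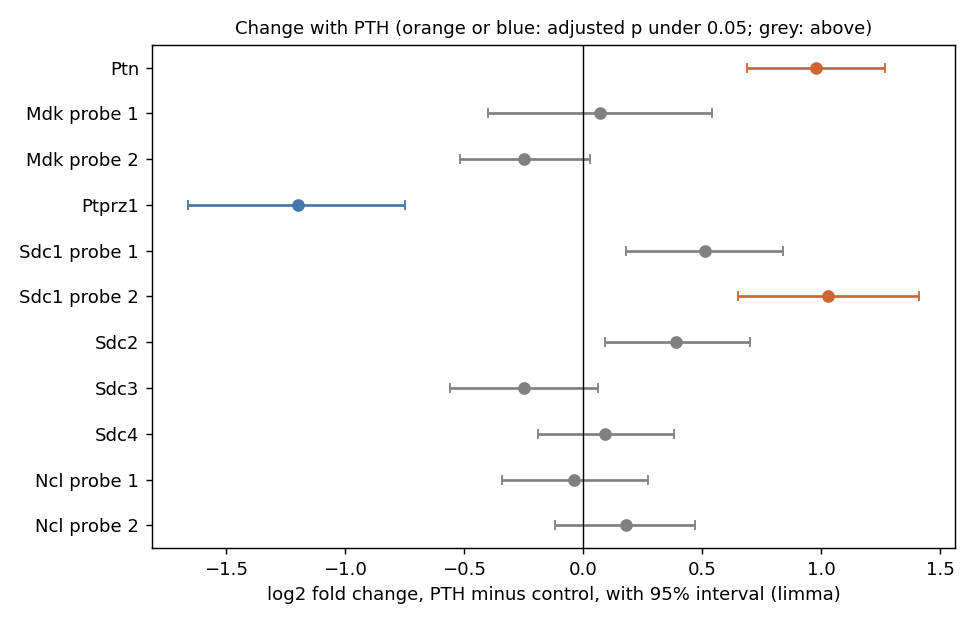
Log2 fold change of PTH over control for the 11 tested probes, with bars for the 95% confidence interval from limma (n = 3 arrays each) and probes called at an adjusted p under 0.05 marked by colour. *Ptn* at 0.98 and the second *Sdc1* probe at 1.03 stand to the right of zero, *Ptprz1* at −1.20 stands to the left, and the other probes lie between −0.25 and 0.51.

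The wider system of these ligands was described with 10 lists of genes, 134 genes in all, of which 128 were on the array and 92 were tested, each by its brightest probe. Of the 92, 3 were called higher and 1 lower with PTH, where 0.685% and 1.04%, or 1.73% together, of all 11979 genes tested were called (the groups did not overlap on 21.9%, in 11.1% with PTH above and in 10.8% below), and the median log2 fold change was −0.01 against 0.01 over all genes. The called genes were *Hs3st1*, *Csgalnact1* and *Mmp9*, which were higher, and *Acan*, which was lower and met the limit for testing through its control arrays alone.

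Among 18 tested genes of heparan sulfate synthesis, 1 was called higher and none lower. This was *Hs3st1*, the sulfotransferase that makes the antithrombin-binding form of heparan sulfate, whose normalized log2 signal rose from 7.93 ± 0.04 to 9.06 ± 0.25 (SD, n = 3 each; limma adjusted p = 0.0142), or 2.19-fold. Its call held in 1 of 6 fits that left out an array, the one without PTH replicate 1, with adjusted p from 0.0157 to 0.0745. The largest fall in this list was that of *Ndst2*, an N-deacetylase and N-sulfotransferase of the growing chain, with a log2 fold change of −0.45 that did not pass (limma adjusted p = 0.138). Among 10 tested genes of chondroitin sulfate synthesis, 1 was called higher. This was *Csgalnact1*, listed on the array as 4732435N03Rik, which adds the sugar that starts a chondroitin sulfate chain. It rose from 5.71 ± 0.24 to 7.19 ± 0.12 (SD, n = 3 each; limma adjusted p = 0.00578), or 2.79-fold, and was called in all 6 fits that left out an array. Without background correction its log2 fold change was smaller, 0.71 in place of 1.48. *Chst3*, which adds sulfate to that chain, had the largest fall among those above background on all arrays, at −0.51, and did not pass (limma adjusted p = 0.428).

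Of 10 tested genes for other proteoglycans with such chains, 1 was called lower. *Acan*, the large chondroitin sulfate proteoglycan of cartilage, listed as Agc1, was above background on all 3 control arrays and on 0 PTH arrays. With the background correction used here it was at least 1.59-fold lower with PTH (limma adjusted p = 0.0114). It met the limit for testing through the control arrays alone, so the filter favoured a fall and the call is not separate support for it. The call was lost without PTH replicate 2 (limma adjusted p = 0.0529) and with the replicate number as a block (limma adjusted p = 0.0587). Without any 1 control array the probe was not tested. Over the other ways of processing its log2 fold change was as small as −0.36, so the 1.59-fold bound does not hold for all of them. Of 6 tested cartilage markers, *Acan* among them, 3 lay below control on every PTH array, and the median log2 fold change of the 6 was −0.34. The normalized signal summed over all 10 markers on the array, tested or not, was 1085 to 1111 in control and 1137 to 1145 with PTH. Among these *Sox9* went up, by 0.32 (limma adjusted p = 0.233). The others of the 3 were *Col10a1* at −0.90 (limma adjusted p = 0.0918) and *Col2a1* at −0.47 (limma adjusted p = 0.169), and the part of cartilage in the result on *Acan* was not tested. The largest rise and fall among the others measured on all arrays were those of *Gpc1*, a glypican, at 0.15 (limma adjusted p = 0.694) and *Cd44*, the hyaluronan receptor, at −0.38 (limma adjusted p = 0.176). A list of proteases that can release syndecan ectodomains, the protease inhibitor *Timp3* and heparanase (*Hpse*), which cuts heparan sulfate, had 7 tested genes, 6 of them proteases, and *Hpse* was not among them. *Mmp9* was called higher. Its log2 signal rose from 11.86 ± 0.11 to 12.59 ± 0.14 (SD, n = 3 each; limma adjusted p = 0.0433). *Mmp9* is also an osteoclast marker, and its call was lost when any 1 of the 6 arrays was left out, with adjusted p from 0.0851 to 0.157. *Mmp2* had the largest fall among those above background on all arrays, at −0.01 (limma adjusted p = 0.979).

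None of the other 6 lists had a called gene. Among 7 tested receptors and co-receptors, *Ptprs*, a phosphatase that binds heparan and chondroitin sulfate, had the largest log2 fold change at 0.61 (limma adjusted p = 0.0977), while the proteoglycan *Cspg4*, which was not above background on all arrays, was at −1.02 (limma adjusted p = 0.176). *Itgb1*, the integrin chain with the lowest change among those above background on all arrays, had a mean of 6.89 in both groups (limma adjusted p = 0.999). Among 3 tested ligands of *Ptprz1* and *Alk* other than those above, the adhesion molecule *Ncam1* was at 0.44 (limma adjusted p = 0.372) and tenascin C (*Tnc*) at −0.16 (limma adjusted p = 0.617). *Tnc* had 6 tested probes, and 1 dim probe chosen after its values were seen, ILMN_2454497, was called at 0.80 (limma adjusted p = 0.0348). Among 8 tested *Ptprz1* substrates, the kinase *Src* was at 0.44 (limma adjusted p = 0.181) and the adaptor *Git1* at −0.27 (limma adjusted p = 0.481), and the median of 0.05 was close to that of all genes. Among 6 tested *Alk* adaptors, *Ptpn11* was at 0.18 (limma adjusted p = 0.621) and *Frs2* at −0.30 (limma adjusted p = 0.279). Among 10 tested proteins that bind syndecans, *Fgfr1* was at 0.22 (limma adjusted p = 0.575) and *Pdcd6ip* at −0.45 (limma adjusted p = 0.349). The 13 tested nucleolar partners of *Ncl* had a median of −0.07, with *Nop2*, listed as Nol1, at 0.29 (limma adjusted p = 0.6) and *Ubtf* at −0.32 (limma adjusted p = 0.408).

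**Figure D3:**
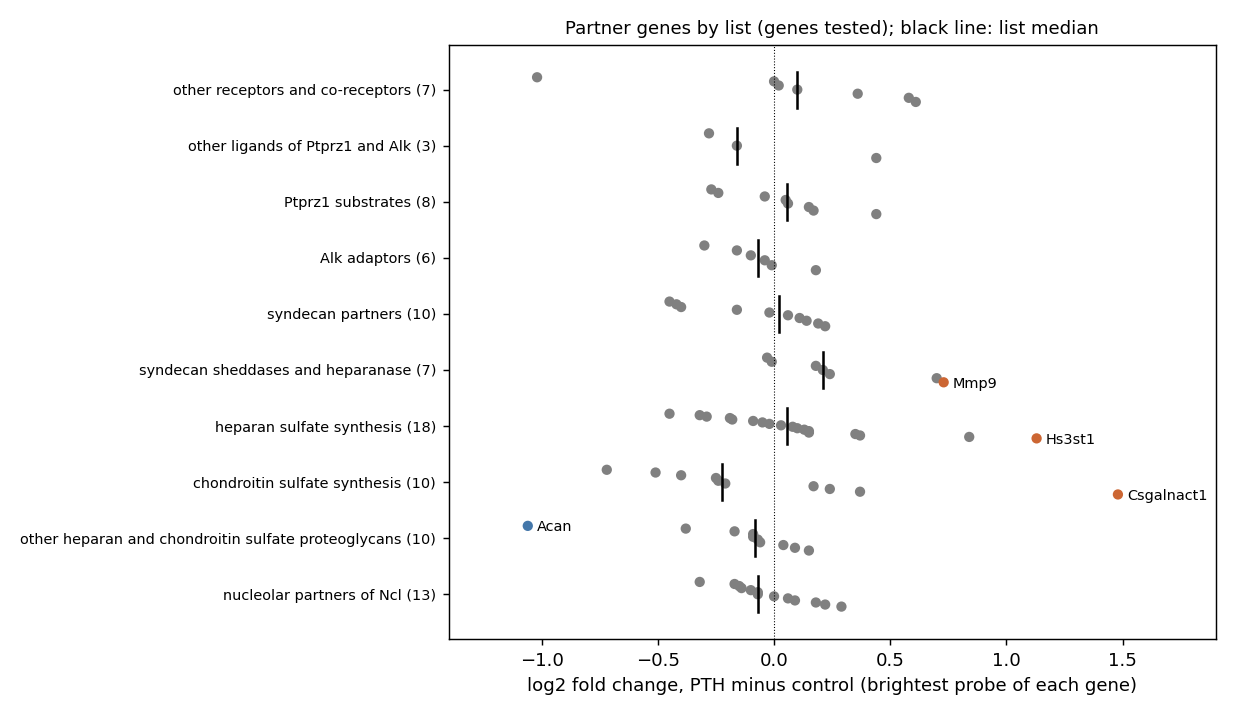
Log2 fold change of PTH over control for each tested gene of the 10 lists, 1 point per gene by its brightest probe, with called genes coloured and a line at the list median (n = 3 arrays each). The 4 called genes are *Csgalnact1* at 1.48, *Hs3st1* at 1.13 and *Mmp9* at 0.73 on the right and *Acan* at the left, whose plotted value was measured against arrays below background, and the list medians lie between −0.23 and 0.21.

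The genes whose brightest probe was most like that of *Ptn* over the 6 arrays were LOC386192 (Pearson r 0.9993), 4732462B05Rik (0.9971), *Nfatc4* (0.9961), *Il1rn* (0.9952) and *Tpp1*, listed as Cln2 (0.9946), out of 11979 genes compared. With 6 arrays in 2 groups, such values describe which genes share the step between control and PTH and the small differences within the groups. LOC386192 has no entry in the gene table used, and whether its probe shares sequence with *Ptn* was not tested, so its values may not be a reading of a separate gene. Of these 5, LOC386192 (0.97, limma adjusted p = 0.011) and *Nfatc4*, a calcium-regulated transcription factor (0.76, limma adjusted p = 0.0312), were called higher, and the others did not pass.

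Markers of several cell types also differed between the groups. Of 13 tested markers of osteocytes and osteoblasts 4 were called lower (*Mepe*, *Ibsp*, *Sp7* and *Pth1r*, listed as Pthr1) and none higher, with a median log2 fold change of −0.81. The normalized signal summed over all 16 on the array, tested or not, was 71830 to 78200 on the control arrays against 59990 to 64140 with PTH. Of 6 tested osteoclast markers 3 were called higher (*Acp5*, *Oscar* and *Mmp9*), with a median of 0.79. The sum over all 10 on the array was 12050 to 13510 against 16300 to 20810. Of 7 tested markers of fibroblasts and periosteum 2 were called higher (*Dcn* and *Col3a1*), with a median of 0.59. The sum over all 11 on the array was 3579 to 3753 against 5534 to 6116. Osteoclast and fibroblast markers are the lists whose medians moved in the direction of *Ptn* and *Sdc1*. Of the fibroblast list, 5 tested markers had a change above 0 and 2 below, *Thy1* at −0.32 and *Scx* at −0.13. Neutrophil markers, with 7 of 10 called lower and a median of −0.80, and red cell markers, with both tested genes called lower, moved in the direction of *Ptprz1*, as did most osteocyte and osteoblast markers. Medians of all the other marker lists were also below 0, from −0.34 for cartilage to −0.03 for plasma cells and B lymphocytes. Of the osteocyte and osteoblast markers, 10 had a change below 0 and 3 above, *Pdpn*, listed as Gp38, at 0.70 (limma adjusted p = 0.056) and *Col1a2* and *Spp1* at 0.01. The part of these shifts in the results on *Ptn*, *Sdc1* and *Ptprz1* was not tested.

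Plasma cells are known for *Sdc1* and Schwann cells for *Ptprz1*. Of the plasma cell and B lymphocyte markers, *Cd79a*, *Ms4a1*, *Igj* and *Tnfrsf17* were above background on no array, while *Mzb1*, *Pou2af1* and *Xbp1* were above it on all 6. None of the 4 tested was called, with log2 fold changes of 0.04 for *Mzb1*, 0.04 for *Pou2af1*, −0.10 for *Cd79b* and −0.35 for *Xbp1*. The normalized signal summed over all 11 of these markers on the array, tested or not, was 4175 to 4321 in control and 3106 to 3651 with PTH. Most of it came from *Xbp1*, a gene of many secretory cells, whose log2 signal went from 11.93 ± 0.03 to 11.58 ± 0.13 (SD, n = 3 each; limma adjusted p = 0.246). Of the Schwann cell and neuron markers, *Sox10*, *S100b* and *Gfap* were above background on no array, while *Mbp* and *Pmp22* were above it on all 6, with log2 fold changes of 0.08 (limma adjusted p = 0.877) and −0.38 (limma adjusted p = 0.392). The part of these cells in the results on *Sdc1* and *Ptprz1* was not tested.

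**Figure D4:**
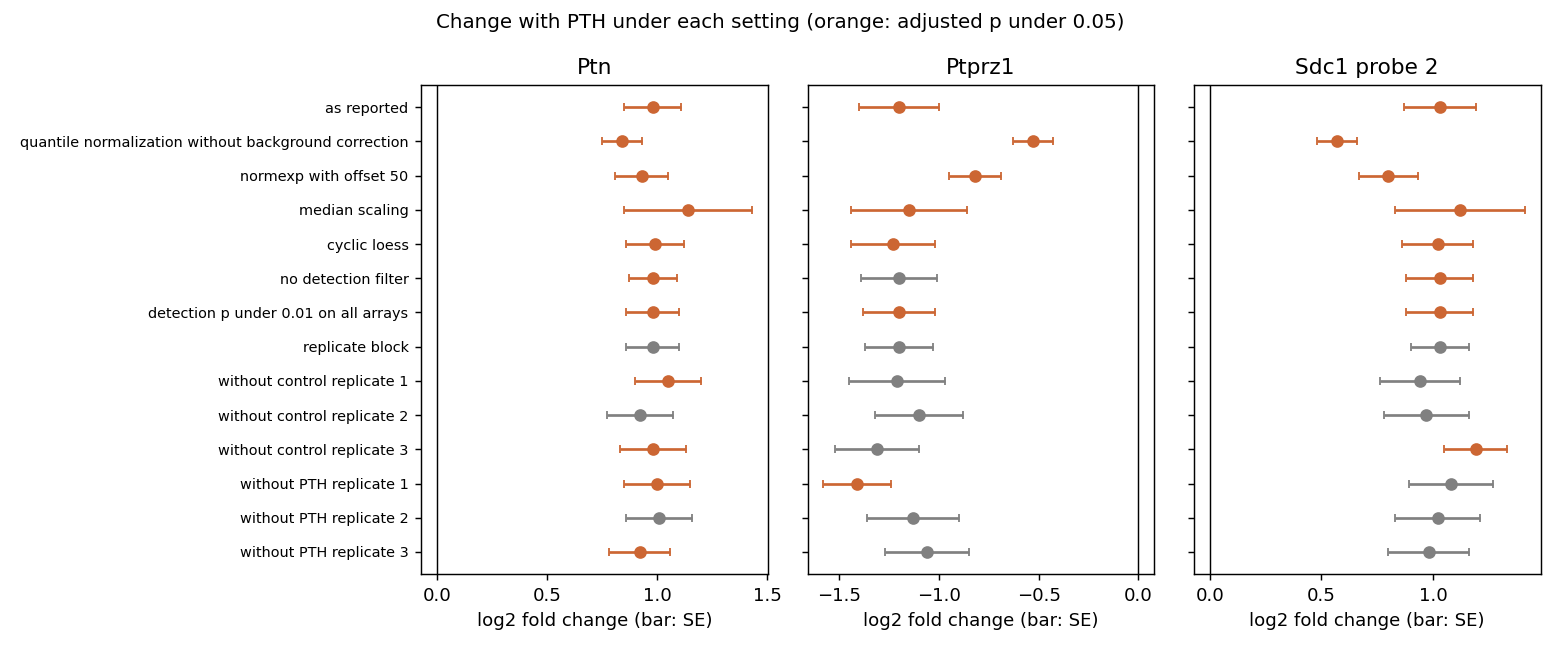
Log2 fold change of the 3 called probes (*Ptn*, *Ptprz1* and the second *Sdc1* probe) under each way of processing the arrays and with each array left out in turn, with orange points where the probe was called at an adjusted p under 0.05, grey points where it was not, and bars for the SE. *Ptn* stays between 0.84 and 1.14, while *Ptprz1* runs from −1.41 to −0.53 and *Sdc1* from 0.57 to 1.19, with the direction of each kept in every setting shown.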

How the data were processed

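RNA of control and PTH bone tubes was measured on 3 arrays each. The authors deposited raw linear probe intensities, neither normalized nor background subtracted, each with a detection p-value that the authors took from the array software. GenomeStudio is named in the submitters' processing notes. The study's quantile-normalized values and differential score could not be rerun and were not used. Here background was corrected by normexp through the detection p-values with an offset of 16, followed by quantile normalization (neqc), and lmFit and eBayes were run in limma 3.58.1 under R 4.3.3, over all probes above background on at least 3 arrays. The 9 genes and the gene lists were chosen with earlier results of these data known. Of the list entries on the array, 212 matched by current symbol and 37 by an older name. The text names all probes of the 9 genes, every called list gene, the largest rise and fall of each list among genes above background on all arrays, and the 5 genes most like *Ptn*. Probe sequences and proteins were not used here. Precision is limited by 3 arrays per group, and no slide is named, so a slide block was not run. The procedure was tested on simulated data. Alternatives were quantile normalization alone, an offset of 50, median scaling, cyclic loess, other detection filters, leaving out single arrays, a block for the replicate number and Student's t-test. The study named that t-test for comparing groups, but for its arrays it named the differential score instead. Some marker genes are not reported here.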

Additional observations from a re-analysis of the deposited data

How the results depend on the processing

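With 2 member probes called higher and 1 lower, leaving out each array in turn gave 0 to 2 and 0 to 1. Student's t-test gave 4 and 2 unadjusted and 1 and 0 after Benjamini-Hochberg adjustment, and with no detection filter 0 were called lower. Of the list genes, 3 higher and 1 lower, leaving out an array gave 1 to 2 and 0 to 1, quantile normalization without background correction 5 and 4, and the t-test 10 and 6 unadjusted and 0 and 0 adjusted, while a detection p under 0.01 on all arrays left 0 lower. The cause of these changes was not tested, except that fewer arrays and fewer or more probes enter some fits. Control and PTH arrays share the numbers 1 to 3, and the labels do not say whether these mark pairs. Deviations from the group means correlated at 0.067, 0.064 and 0.273 between same-numbered arrays. Between arrays of different numbers the correlations ran from −0.142 to 0.073. As the same-numbered values were not all above 0.1, the numbers were not taken as pairs. These values do not settle whether the arrays were paired, and the calls given above are those without pairs. With the replicate number as a block 0 member probes were called higher and 0 lower, 1 list gene higher and 0 lower, and the limma adjusted p was 0.0568 for *Ptn*, 0.0697 for *Ptprz1* and 0.0593 for the second *Sdc1* probe. Sign turned only for probes near 0. The brighter *Ncl* probe went to 0.12 under median scaling and, with an array left out, ran from −0.12 to 0.05, above 0 without PTH replicate 2. The brighter *Mdk* probe ran from −0.08 to 0.23 with an array left out, and was at −0.07 without PTH replicate 1 and −0.08 without control replicate 3. Median scaling moved the median of all probes by 0.111 and turned the 100 higher and 161 lower calls over all probes into 77 and 61. Calls over all probes at an adjusted p under 0.05 ran from 64 with the block to 723 without background correction, and the unadjusted t-test gave 2257. Probes near background, such as those of *Ptprz1* and *Alk*, limit what can be measured.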
